A study of Mus musculus with 2 samples.

Results

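The genes described here are the 6 Fc receptor genes of resident macrophages of the sciatic nerve, Fcgr1, Fcgr3, Fcgr4, Fcgr2b, Fcer1g and Fcgrt, out of 54838 genes in the count matrices. They were chosen by name and not by any measured value. Macrophages were taken from the nerves of 19 pooled male mice of 10 to 12 weeks carrying Flt3-Cre and the LSL-YFP fl/fl reporter, which both groups share, and were sorted on CD64 and CD45 into a YFP- and a YFP+ fraction. In these mice a cell is YFP+ when it or a progenitor of it expressed the Cre driven by Flt3. By the paper's account, the label covers multipotent blood progenitors of fetal monocyte and of adult haematopoietic stem cell origin, and their progeny. The study used the mark to separate macrophages of embryonic origin from those derived from haematopoietic stem cells. A cell in which recombination failed would also be YFP-. Each fraction gave 1 droplet library, so sort fraction, library, lane and YFP status cannot be told apart, no test of the groups was made, and the 95% intervals below cover counting error only. Cells were barcodes with at least 500 unique molecular identifiers (UMIs, each marking 1 captured mRNA molecule) and 200 genes, which left 1045 YFP- and 4053 YFP+ cells. CD64 is the protein made from Fcgr1, so the presence of Fcgr1 in these cells follows from the sort and is not a finding. Both fractions were sorted on CD64, so a comparison of Fcgr1 between them is not free of the sort either. How far the sort limited a difference in Fcgr1 was not tested.

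Fc receptors bind the constant part of antibodies. In mice Fcgr1, Fcgr3 and Fcgr4 encode activating receptors for IgG, which carry no signalling motif of their own and pair with the common gamma chain encoded by Fcer1g, whose ITAM motif recruits the kinase Syk. Fcgr2b encodes the inhibitory receptor for IgG, which carries an ITIM motif in its own tail and recruits the phosphatase SHIP-1. Fcgrt encodes the heavy chain of the neonatal Fc receptor FcRn, which pairs with beta-2-microglobulin in endosomes and returns IgG and albumin to the cell surface instead of letting them be degraded. Macrophages use these receptors to take up antibody-coated particles such as myelin debris.

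Fcgr2b, Fcgr4, Fcgr3 and Fcer1g lie close together on chromosome 1 (GRCm38), with Fcgr2b at 170958617 to 170976547 on the minus strand, Fcgr4 at 171018920 to 171029761 on the plus strand, Fcgr3 at 171051174 to 171064935 on the minus strand and Fcer1g at 171229572 to 171234365 on the minus strand. Fcgr1 lies on chromosome 3 at 96282909 to 96293969 and Fcgrt on chromosome 7 at 45092990 to 45103851, both on the minus strand. Fcgr2b and Fcgrt are each overlapped by an antisense gene, Gm38204 and Gm45669. Fcgr3 is overlapped by the microRNA gene Mir6546 and Fcgr4 by the small nuclear RNA gene Gm26110, each on the strand of the receptor gene. Fcgr2b and Fcgr3 are related in sequence, and of the 50-base words in the last 500 bases of the Fcgr2b transcripts 2.25% also occurred in Fcgr3, so that some reads of Fcgr2b could not be assigned to 1 gene. None of the words of the other 5 genes occurred in another gene.

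The 250 bases before the transcription start, from RefSeq (GRCm38.p6), are shown for 3 activating receptors, chosen by their pattern over clusters described below. In the YFP+ library Fcgr4 and Fcgr1 were highest in the interferon-like cells and Fcgr3 was not. In the YFP- library only Fcgr4 was, on 9 UMIs and with an interval that overlapped that of the cluster led by Gm28661, Atp13a1 and Gm10925. In that library Fcgr1 was highest in the cluster led by Il1b, Cxcl2 and Hspa1a, again with an interval that overlapped those of other clusters. Capitals mark the letters GAAA, any 2 letters and GAAA again (an ISRE-like motif, the interferon-stimulated response element), searched on both strands. The windows are chr3:96293970-96294219 on the minus strand for Fcgr1, chr1:171018676-171018925 on the plus strand for Fcgr4 and chr1:171059404-171059653 on the minus strand for Fcgr3. The Fcgr3 window lies inside the gene as placed above, so the start of Fcgr3 differs between the annotations used. A further RefSeq start of Fcgr3, with the window chr1:171059395-171059644, also lacked the ISRE-like letters.
Fcgr1: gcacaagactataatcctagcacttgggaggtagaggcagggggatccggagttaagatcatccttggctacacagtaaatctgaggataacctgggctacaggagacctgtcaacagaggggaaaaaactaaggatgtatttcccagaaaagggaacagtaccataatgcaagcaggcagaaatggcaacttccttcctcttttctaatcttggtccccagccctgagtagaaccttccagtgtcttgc
Fcgr4: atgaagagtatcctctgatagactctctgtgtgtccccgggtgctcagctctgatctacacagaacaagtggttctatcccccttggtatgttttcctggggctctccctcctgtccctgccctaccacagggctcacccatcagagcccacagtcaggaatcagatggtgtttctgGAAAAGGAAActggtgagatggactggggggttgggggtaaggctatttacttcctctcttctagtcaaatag
Fcgr3: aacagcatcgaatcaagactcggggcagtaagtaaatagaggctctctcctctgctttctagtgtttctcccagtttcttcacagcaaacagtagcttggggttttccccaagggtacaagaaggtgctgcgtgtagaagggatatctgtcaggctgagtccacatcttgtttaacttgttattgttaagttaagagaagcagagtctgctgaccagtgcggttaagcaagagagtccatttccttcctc
Fcgr4 held the ISRE-like letters GAAAAGGAAA 73 bases before the start, and the other 5 genes did not hold them. Of 32851 mouse promoter windows of the same length, 2.98% held the ISRE-like letters. The letters GAGGAA, as bound by the myeloid factor PU.1, were found in Fcgr1, Fcgr3 and Fcgr4 and in 23.3% of all windows, on either strand and without overlap with the ISRE-like letters. A match describes the letters and does not show binding. No other motif was searched. A window without a match may therefore hold other letters linked to the interferon response.

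The cells held 2418044 UMIs in the YFP- and 6747554 UMIs in the YFP+ library, with medians of 2233 and 1484 UMIs per cell, and 3 UMIs corresponded to 1.24 and 0.445 CPM (a gene's UMIs for 1000000 UMIs of the same cells). The label of both libraries was checked against macrophage genes. Csf1r, the receptor for CSF1, was at 992 and 873 CPM in YFP- and YFP+ cells, Cd68 at 510.3 and 550.3 CPM, Adgre1 (F4/80) at 261 and 243 CPM and Ptprc (CD45) at 219 and 241 CPM, and none of 8 macrophage markers was without a UMI. The summed level of 6 mural cell markers was 11.6 CPM among YFP- and 131 CPM among YFP+ cells, that of 6 fibroblast markers 23.6 and 94.6 CPM, and that of 6 Schwann cell markers 691 and 631 CPM. T cell, NK cell and mast cell markers summed to at most 2.07 CPM in either library. Sums were higher for endothelial markers, at 92.6 CPM (YFP-) and 61.2 CPM (YFP+), and for dendritic cell markers, at 72.0 and 64.5 CPM. In the same order, B cell markers summed to 57.9 and 53.8 CPM, and neutrophil markers to 17.8 and 13.0 CPM. Between the libraries 7 cell barcodes were shared, where 5.74 would be shared by independent draws.

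Among the activating receptors, Fcgr3 was by far the highest. Fcgr3 (CD16) was counted at 904 CPM (interval 867 to 943) for YFP- and 823 CPM (802 to 845) for YFP+ cells. The log2 ratio, with YFP+ over YFP- throughout, was -0.14 (-0.21 to -0.06), so the YFP+ level was lower by more than counting error but by little. With each cell thinned at random to 500 UMIs, which leaves fewer counts, it was -0.14 (-0.29 to 0.01), an interval that held 0. Fcgr1 (CD64, the high-affinity IgG receptor) was at 108 CPM (95.6 to 122) and 111 CPM (103 to 119) in the same order, a log2 ratio of 0.03 (-0.17 to 0.24). Fcgr4 (CD16-2, a receptor for IgG2 subclasses) was the lowest, with 26.1 CPM (20.02 to 33.3) for YFP- and 31.3 CPM (27.2 to 35.8) for YFP+ cells. Its log2 ratio was 0.25 (-0.14 to 0.67), and with 63 and 211 UMIs a 1.5-fold difference could not be told from none. UMIs were counted once per molecule at the 3′ end and were not divided by gene length.

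Fcgr2b (CD32b), the inhibitory receptor, was at 285 CPM (264 to 307) among YFP- and 300.1 CPM (287 to 313) among YFP+ cells, with a log2 ratio of 0.08 (-0.05 to 0.20). Fcer1g, the shared signalling chain, was at 3043 CPM (2974 to 3114) and 3040.1 CPM (2999 to 3082), which made it the 42nd most abundant gene in each library. Its log2 ratio was -0.00 (-0.04 to 0.04), the narrowest interval of the 6 genes. Fcgrt, the heavy chain of FcRn, was at 359.8 CPM (336 to 385) and 333 CPM (320 to 348), with a log2 ratio of -0.11 (-0.22 to 0.00). The chains that pair with these genes or their relatives also stayed within 1.5-fold. B2m, the light chain of FcRn, was at 2029 and 2010.1 CPM, and Tyrobp (DAP12), an ITAM adaptor related to Fcer1g, at 2764 and 2578 CPM, with log2 ratios of -0.01 (-0.06 to 0.03) and -0.10 (-0.14 to -0.06).

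**Figure D1:**
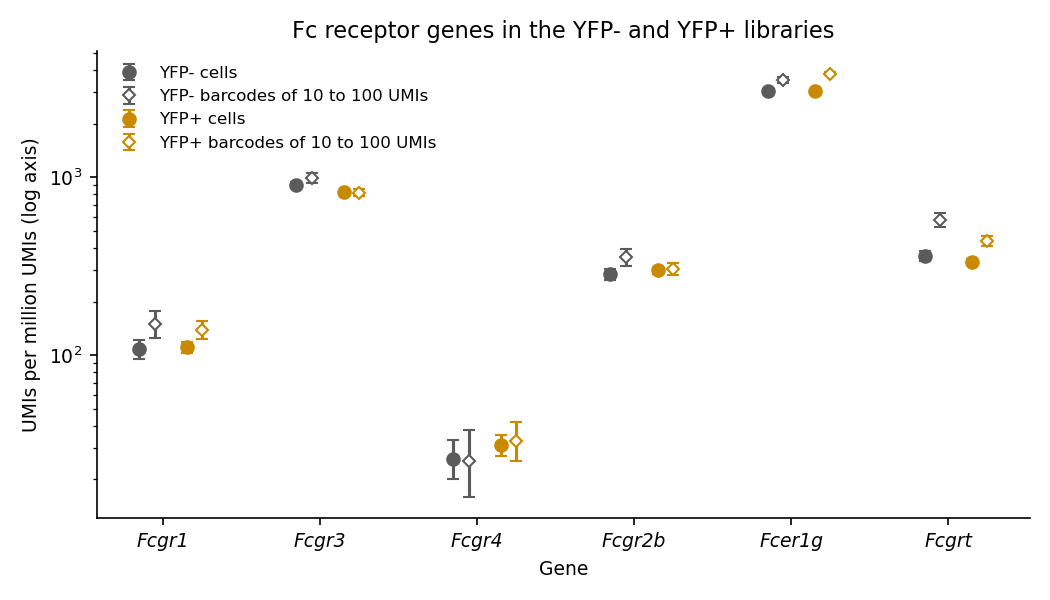
Level of the 6 genes in cells (filled circles) and in barcodes of 10 to 100 UMIs (open diamonds) of the YFP- and YFP+ libraries, in CPM on a log axis, with exact Poisson 95% intervals. The order of the genes was the same in both libraries, from Fcer1g at 3043 and 3040.1 down to Fcgr4 at 26.1 and 31.3 CPM.

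The order from highest to lowest, Fcer1g, Fcgr3, Fcgrt, Fcgr2b, Fcgr1 and Fcgr4, was thus the same in YFP- and YFP+ cells, and the intervals of no 2 neighbours in this order overlapped. None of the 6 genes passed 1.5-fold between the libraries, where 7.3% of 5531 genes with a mean level of at least 20 CPM did (1.54% higher and 5.77% lower in YFP+ cells). With 6 genes and a share of 7.3%, having none past 1.5-fold says little about these genes. The median size of the log2 ratio was 0.09 over the 6 genes and 0.15 over all genes compared. The 6 genes include Fcgr1, whose protein was used to sort both fractions. All genes compared were not matched to the 6 genes on level, and counting error is larger for genes of low level. The intervals reached a ratio of 1.59 for Fcgr4 and stayed within 0.857 and 1.18 for the other 5 genes.

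**Figure D2:**
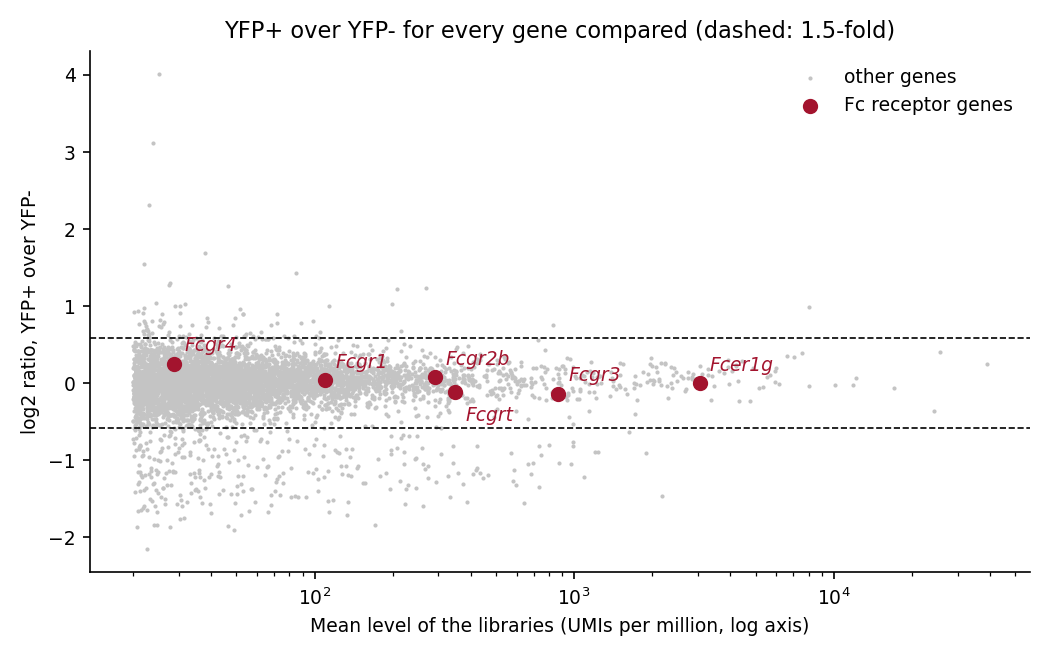
log2 ratio of YFP+ over YFP- cells against the mean level of the libraries in CPM (log axis) for all 5531 genes compared, with the 6 Fc receptor genes in red and dashed lines at 1.5-fold. The 6 genes lie between -0.14 (Fcgr3) and 0.25 (Fcgr4), inside the dashed lines.

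Since activating and inhibitory receptors oppose each other, their ratio was compared within each library, where it does not depend on the library total. YFP- cells held 2512 UMIs of Fcgr1, Fcgr3 and Fcgr4 for 688 of Fcgr2b, a ratio of 3.65 (3.35 to 3.98). YFP+ cells held 6516 for 2025, a ratio of 3.22 (3.06 to 3.38). The YFP+ ratio was 0.881 times (0.798 to 0.973) the YFP- ratio, a gap larger than counting error. Fcgr3 gave 87.1% of the activating UMIs in YFP- and 85.3% in YFP+ cells, Fcgr1 gave 10.4% and 11.5%, and Fcgr4 gave 2.51% and 3.24%. There were 2.93 (2.80 to 3.07) UMIs of Fcer1g for each activating receptor UMI in YFP- and 3.15 (3.06 to 3.24) in YFP+ cells, 1.07 times (1.02 to 1.13) as many.

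Free RNA limited what could be said of single cells. In barcodes of 10 to 100 UMIs, taken here as free RNA, Fcer1g was at 3518 and 3814 CPM in the YFP- and YFP+ libraries, Fcgr3 at 987 and 819 CPM, and Fcgrt at 575 and 436 CPM. With each cell thinned to 500 UMIs, Fcer1g was seen in 70.7% (67.9 to 73.5) of YFP- and 74.9% (73.5 to 76.2) of YFP+ cells, and Fcgr3 in 35.0% (32.1 to 38.0) and 32.9% (31.5 to 34.4). Fcgrt was seen in 18.3% (16.0 to 20.8) and 14.9% (13.8 to 16.1), and Fcgr2b in 13.1% (11.1 to 15.3) and 13.6% (12.6 to 14.7). Fcgr1, in cells chosen for its protein, was seen in 5.84% (4.49 to 7.44) and 5.80% (5.10 to 6.56), and Fcgr4 in 1.34% (0.734 to 2.24) and 1.13% (0.832 to 1.51). All these shares except that of Fcgr4 in YFP- cells (1.26% from free RNA alone) were below the share that free RNA alone would give at 500 UMIs, such as 82.8% and 85.1% for Fcer1g and 7.20% and 6.72% for Fcgr1. The share from free RNA assumes that all 500 UMIs of a cell were free RNA. Free RNA held these genes at levels near or above those of cells, so cells could hardly exceed that share. A cell with a UMI is not called positive here, since these shares cannot decide it. Unthinned, Fcgr1 was seen in 19.7% and 15.5% of cells and Fcer1g in 94.2% and 93.2%.

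A group of 97 cells with markers of mural cells, a type not known for receptors of IgG, showed fewer of them. Of these mural-like cells 30.9% (21.9 to 41.1) had a UMI of Fcer1g and 11.3% (5.80 to 19.4) a UMI of Fcgr3 after thinning, against 74.9% (73.7 to 76.1) and 33.8% (32.5 to 35.1) of the other 5001 cells. For Fcgr2b the shares were 6.19% (2.30 to 13.0) and 13.6% (12.7 to 14.6), and for Fcgr1 1.03% (0.0261 to 5.61) and 5.90% (5.26 to 6.59), with intervals that just overlapped. Fcgr4 was seen in 0 of 97 mural-like cells, which allows a share of up to 3.09% (3 cells) and has an exact interval up to 3.73%, for cells with a UMI at 500 UMIs. Fcgrt did not separate them, with 14.4% (8.12 to 23.0) of mural-like and 15.6% (14.6 to 16.7) of other cells. The median depth before thinning was 982 UMIs in mural-like and 1637 in other cells.

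To see how the receptors varied among macrophages, the cells of both libraries were clustered with the 6 genes and 12 other Fc receptor genes left out. Of 10 clusters 5 met the rule for a name. They were Cd209-high Fcna-like cells (91 YFP- and 148 YFP+), Ccr2 S100a6-like cells (77 and 556), interferon-like cells (46 and 114), cycling-like cells (13 and 61) and the mural-like cells (12 and 85), and the others are given by their leading genes. In each library a cluster was set against all other cells of that library.

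Cd209-high Fcna-like cells held more Fcgrt than other cells in both libraries. The level was 566 CPM against 341 CPM in other YFP- cells, a log2 ratio of 0.73 (0.43 to 1.02), and 629 CPM against 322 CPM in other YFP+ cells, a log2 ratio of 0.96 (0.72 to 1.198). Clustering at a higher resolution gave a narrower group with 1.43 and 1.35. Fcgr2b was also higher in these cells, at 371 against 277 CPM (log2 ratio 0.42, 0.05 to 0.77) in the YFP- and 373 against 297 CPM (0.33, 0.01 to 0.63) in the YFP+ library, short of 1.5-fold. Other clusterings gave 0.43 to 0.76 in the YFP- and 0.33 to 0.70 in the YFP+ library, past 1.5-fold in both at a higher resolution and with 10 components and in the YFP- library clustered alone. Fcgr1 was at 60.9 against 113 CPM in YFP+ cells, a log2 ratio of -0.88 (-1.71 to -0.16) on 15 UMIs, and at 100.2 against 109 CPM in YFP- cells, where 0 lay within the interval (-0.12, -0.85 to 0.53) and other clusterings gave -0.35 (-1.23 to 0.41, with no gene left out) to -2.19. Fcgr4 was seen with 1 UMI in the YFP- and 5 UMIs in the YFP+ cells of this cluster, at 5.01 against 27.9 CPM (log2 ratio -2.27, -4.70 to 0.05) and 20.3 against 31.7 CPM (-0.62, -2.12 to 0.59). Of the genes with a mean of at least 20 CPM, 5 in the YFP- library (without Fcgr4) and 6 in the YFP+ library, 1 was higher past 1.5-fold in each, where 20.4% and 17% of all such genes were, and 0 and 2 were lower, where 12.1% and 10.4% were. The activating to inhibitory ratio in these cells was 2.53 (1.92 to 3.35) in the YFP- and 2.45 (1.91 to 3.15) in the YFP+ library. Both were below the ratios of all cells, which include these cells. The interval ended just short of that of all cells in the YFP- library and overlapped it in the YFP+ library.

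In interferon-like cells, led by Irf7, Ifit2 and Ifit3, Fcgr4 was the gene with the largest ratio. It was at 92.2 CPM (42.2 to 175) against 23.3 CPM in the YFP- library, a log2 ratio of 1.94 (0.76 to 2.96) on 9 UMIs, which became 0.83 (-1.38 to 2.42) with no gene left out of the clustering, and at 120 CPM (76.8 to 178) against 28.6 CPM in the YFP+ library, 2.03 (1.36 to 2.64) on 24 UMIs. Fcgr1 was at 235 against 107 CPM in YFP+ cells, 1.12 (0.67 to 1.55), and at 143 against 107 CPM in YFP- cells, 0.42 (-0.46 to 1.19), where the 14 UMIs could not show a difference. In the YFP- library the level of Fcgr1 was highest in the cluster led by Il1b, Cxcl2 and Hspa1a, at 149 CPM (104 to 206). Fcer1g was higher by less than 1.5-fold in both, at 3575 against 3021 CPM (0.24, 0.08 to 0.40) and 3510.4 against 3026 CPM (0.21, 0.10 to 0.32). Fcgr3 was at 973 against 902 CPM and 924 against 820.3 CPM, with intervals that held 0. Fcgr2b was at 184 CPM (18 UMIs) against 289 CPM in the YFP- library, -0.64 (-1.40 to 0.02), and at 325 against 299 CPM in the YFP+ library, 0.12 (-0.26 to 0.47). Past 1.5-fold, 1 of the 6 genes was higher in YFP- and 2 in YFP+ cells, where 22.3% and 14.2% of all genes were, and 1 and 0 were lower, where 17.2% and 11.2% were. The activating to inhibitory ratio was the highest of the clusters in both libraries, at 6.56 (3.97 to 11.4) and 3.94 (2.99 to 5.25), though the intervals overlapped those of several other clusters.

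**Figure D3:**
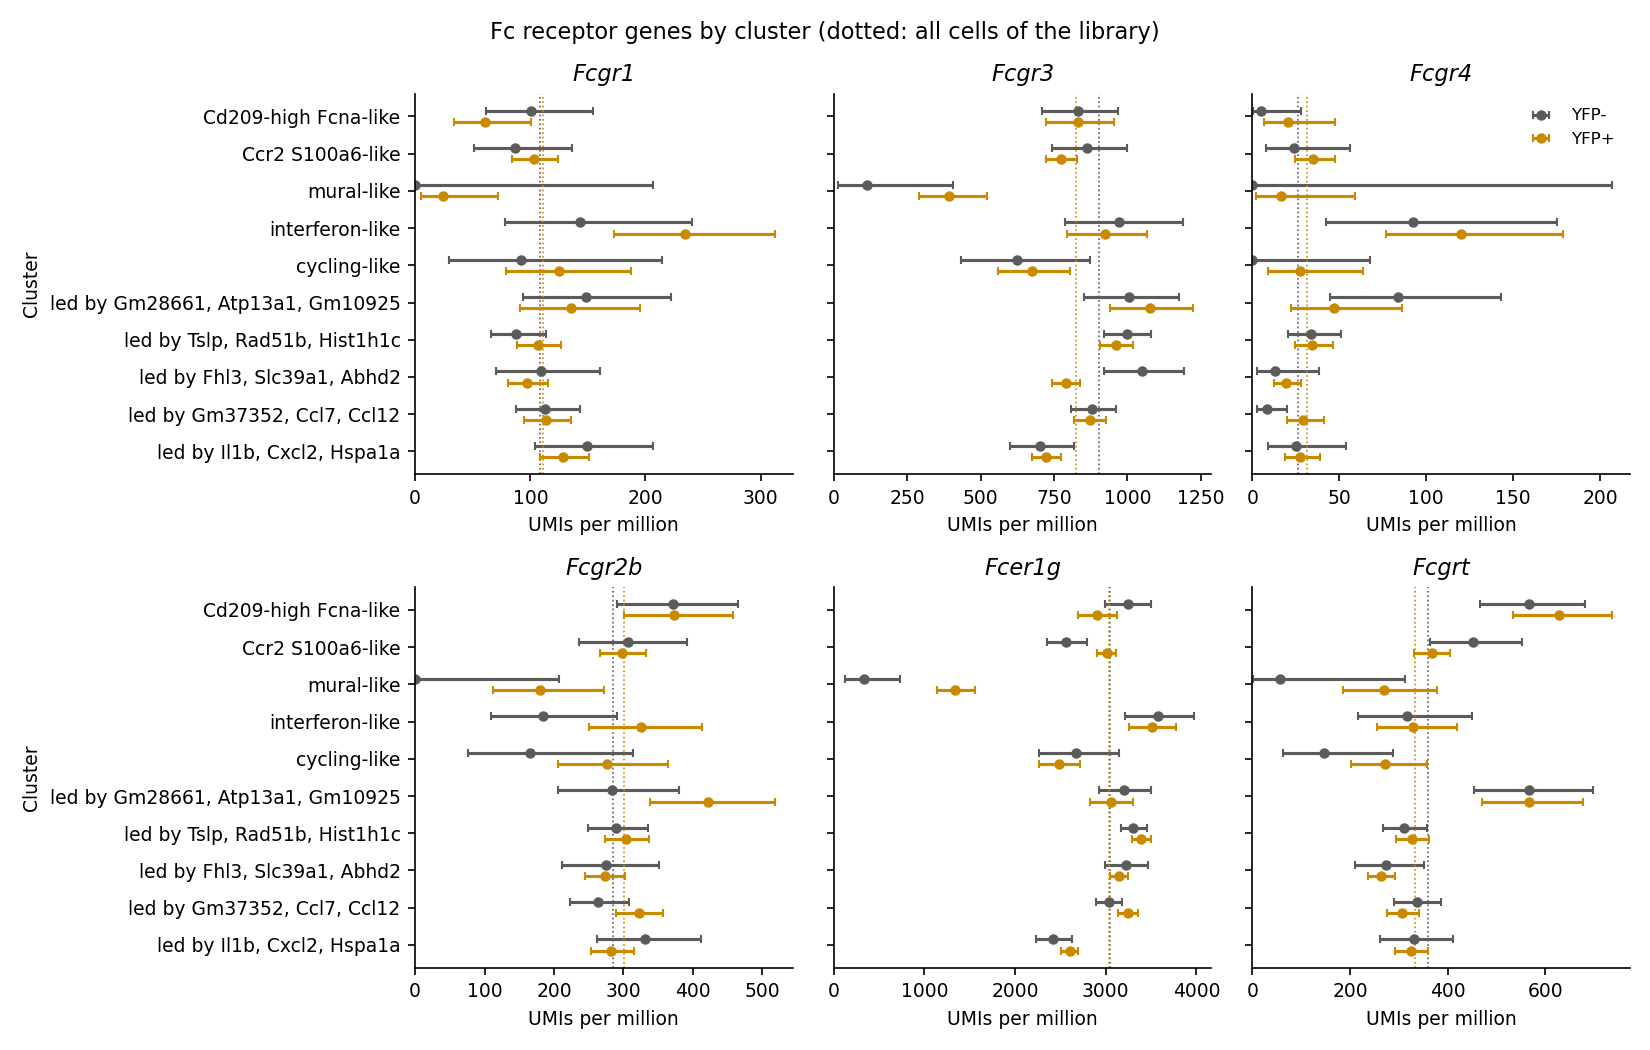
Level of each gene in CPM by cluster, in YFP- (grey) and YFP+ (orange) cells, with exact Poisson 95% intervals and dotted lines at the level of all cells of each library. Fcgrt is highest in the YFP+ library in Cd209-high Fcna-like cells (629 CPM), and Fcgr4 is highest in both libraries in interferon-like cells (92.2 and 120 CPM). For Fcgr4 in the YFP- library, the cluster led by Gm28661 is close, at 83.7 CPM, with an overlapping interval.

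In the Ccr2 S100a6-like cells, 556 of them YFP+, none of the 6 genes passed 1.5-fold in either library. Of all genes, which were not matched on level, 27% (YFP-) and 8.19% (YFP+) did. With 6 genes and shares of this size, the lack of such a gene says little about these genes. Fcgrt was at 451 against 351 CPM in YFP- cells (0.36, 0.04 to 0.67) and 367 against 327 CPM in YFP+ cells (0.17, 0.01 to 0.32). Fcer1g was at 2562 against 3089 CPM in YFP- cells (-0.27, -0.40 to -0.14) and at 3012 against 3045 CPM in YFP+ cells (-0.02, -0.07 to 0.04).

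Cycling-like cells had lower Fcgr3 in both libraries, at 623 against 911 CPM (-0.55, -1.08 to -0.06) and 674 against 828 CPM (-0.30, -0.57 to -0.04), within 1.5-fold. Fcer1g was also lower in the YFP+ cells, at 2482 against 3056 CPM (-0.30, -0.44 to -0.17). In the YFP- cells it was at 2677 against 3052 CPM, with an interval that held 0 (-0.19, -0.44 to 0.05). Fcgrt was at 147 against 365 CPM in the 13 YFP- cells (-1.31, -2.51 to -0.33, on 8 UMIs) and at 272 against 335 CPM in the 61 YFP+ cells (-0.30, -0.74 to 0.10). Fcgr4 had 0 UMIs in the YFP- and 5 UMIs in the YFP+ cycling-like cells. Fcgr2b was at 165 against 287 CPM in the YFP- (-0.80, -1.92 to 0.13, on 9 UMIs) and at 277 against 301 CPM in the YFP+ cells (-0.12, -0.55 to 0.28).

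Among the unnamed clusters, that led by Il1b, Cxcl2 and Hspa1a had less Fcer1g and Fcgr3. Fcer1g was at 2424 against 3112 CPM in YFP- cells (-0.36, -0.48 to -0.24) and 2604 against 3129 CPM in YFP+ cells (-0.26, -0.32 to -0.21). Fcgr3 was at 703 against 927 CPM (-0.40, -0.63 to -0.17) and 723 against 844 CPM (-0.22, -0.33 to -0.11). The cluster led by Gm28661, Atp13a1 and Gm10925, whose cells had a median of 873 UMIs and raised mitochondrial genes, held Fcgrt at 566 CPM in both libraries, against 346 CPM in other YFP- cells (0.71, 0.38 to 1.03) and 326 CPM in other YFP+ cells (0.80, 0.52 to 1.06). Fcgr4 was at 83.7 against 22.1 CPM in its YFP- cells (1.87, 0.89 to 2.76, on 13 UMIs) and at 46.8 against 30.8 CPM in its YFP+ cells (0.59, -0.46 to 1.48). Fcgr2b was at 283 against 285 CPM in its YFP- cells (-0.01, -0.48 to 0.43) and at 421 against 296 CPM in its YFP+ cells (0.51, 0.19 to 0.81). Fcgr3 was at 1004 against 898 CPM (0.16, -0.08 to 0.40) and 1076 against 815 CPM (0.40, 0.20 to 0.59) in the same order. Higher Fcgrt in both libraries, and higher Fcgr2b in the YFP+ library, were thus not particular to Cd209-high Fcna-like cells. The part of the low depth of these cells in the values was not tested. Apart from mural-like cells, the level of Fcer1g ranged over the clusters by 1.47-fold in the YFP- and 1.41-fold in the YFP+ library, while that of Fcgrt ranged by 3.86-fold and 2.39-fold. The lowest YFP- level of Fcgrt, 147 CPM (63.3 to 289), rested on 8 UMIs of 13 cycling-like cells. Counting error widens such a range, and Fcgrt had fewer UMIs than Fcer1g, so the ranges of the 2 genes are not directly comparable.

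**Figure D4:**
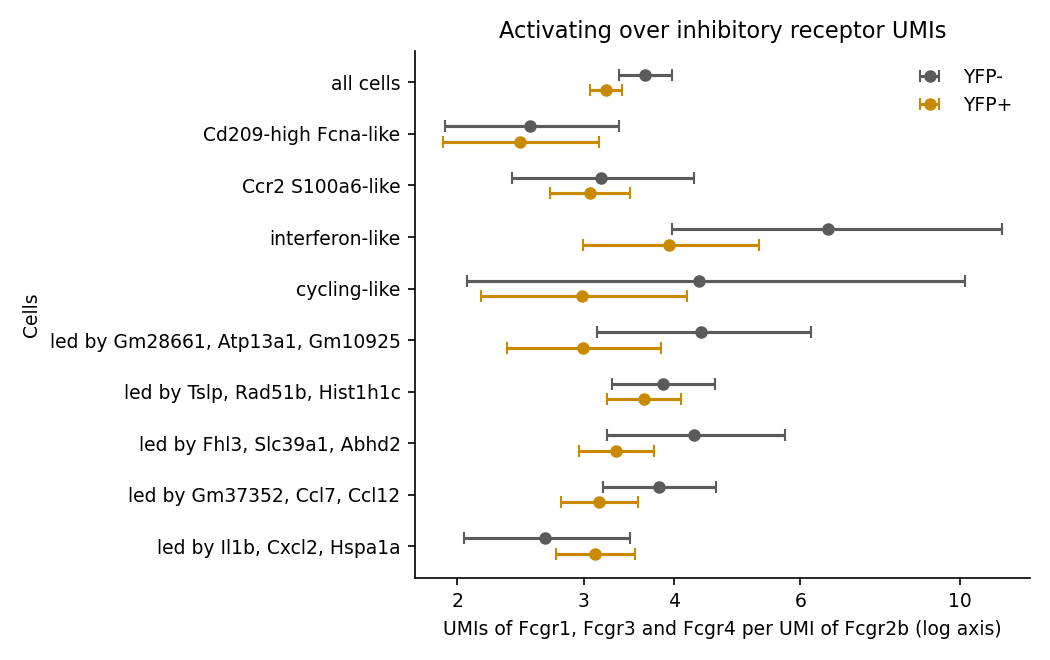
UMIs of Fcgr1, Fcgr3 and Fcgr4 for each UMI of Fcgr2b (log axis) in all cells and in each cluster except mural-like cells, for YFP- (grey) and YFP+ (orange) cells, with exact 95% intervals. Cd209-high Fcna-like cells lie lowest in both libraries (2.53 and 2.45), and interferon-like cells highest (6.56 and 3.94).

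The libraries were then compared within clusters. Of 54 comparisons of 1 of the 6 genes in 1 cluster with a mean of at least 20 CPM, the interval of the log2 ratio left out 0 in 8, or 14.8%, where it did so in 9.6% of 56834 such comparisons over all genes, which were not matched on level. Fcgr3 was lower in YFP+ cells in the cluster led by Fhl3, Slc39a1 and Abhd2, at 790.0 against 1051 CPM (-0.41, -0.61 to -0.20). Fcgr2b was higher in YFP+ cells in the interferon-like cluster (325 against 184 CPM, 0.81, 0.04 to 1.65), in that led by Gm28661 (421 against 283 CPM, 0.57, 0.04 to 1.12) and in that led by Gm37352 (322 against 263 CPM, 0.29, 0.01 to 0.57). Fcgr4, under the minimum level there, was at 29.4 CPM among YFP+ and 8.54 CPM among YFP- cells of the cluster led by Gm37352 (1.67, 0.39 to 3.11, on 32 and 5 UMIs). Fcer1g was higher in YFP+ cells of the Ccr2 S100a6-like cluster, at 3012 against 2562 CPM (0.23, 0.10 to 0.37), and of that led by Gm37352, at 3244 against 3036 CPM (0.10, 0.01 to 0.18). It was lower in YFP+ cells of the Cd209-high Fcna-like cluster, at 2906 against 3242 CPM (-0.16, -0.31 to -0.00). In mural-like cells it was at 1332 CPM among YFP+ and 336 CPM among YFP- cells (1.98, 0.83 to 3.44), on 163 and 6 UMIs.

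The level of Fcgrt moved with the depth of the cell in the YFP- library. In YFP- cells with 500 to under 1000 UMIs it was at 783 CPM (629 to 963), with 1000 to under 2000 UMIs at 397 CPM (340 to 462), and with 2000 or more at 326 CPM (300 to 352). In YFP+ cells the same strata were at 359.7 CPM (321 to 401), 328 CPM (305 to 352) and 331 CPM (312 to 350.2). The high stratum held 150 YFP- cells, of which 58 had a UMI of Fcgrt and none more than 5. Of these 150 cells, 21 were Cd209-high Fcna-like, with Fcgrt at 1623 CPM (1060 to 2377), 73 belonged to the cluster led by Gm28661, with 836 CPM (605 to 1127), and the other 56 were at 432 CPM (264 to 667). In YFP+ cells of the same depth these levels were 1025 CPM (718 to 1420) in 47 cells, 643 CPM (497 to 818) in 145 cells and 289 CPM (252 to 331) in 992 cells. B2m was at 2102 CPM (1844 to 2386) in the shallow YFP- and 1716 CPM (1630 to 1804) in the shallow YFP+ cells. The log2 ratio of Fcgrt changed from -0.11 to -0.35 (-0.57 to -0.13) when every cell was thinned to 500 UMIs, and to -0.04 (-0.16 to 0.08) in cells of at least 1000 UMIs. Fcgr4 was at 44.0 CPM (14.3 to 103, on 5 UMIs), 44.4 CPM (26.7 to 69.3) and 20.8 CPM (14.8 to 28.4) over the same strata of YFP- cells. Over those of YFP+ cells it was at 21.5 CPM (12.9 to 33.6), 29.6 CPM (23.0 to 37.5) and 34.8 CPM (28.9 to 41.5). The interval of the shallowest YFP- cells held all the other values of Fcgr4.

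**Figure D5:**
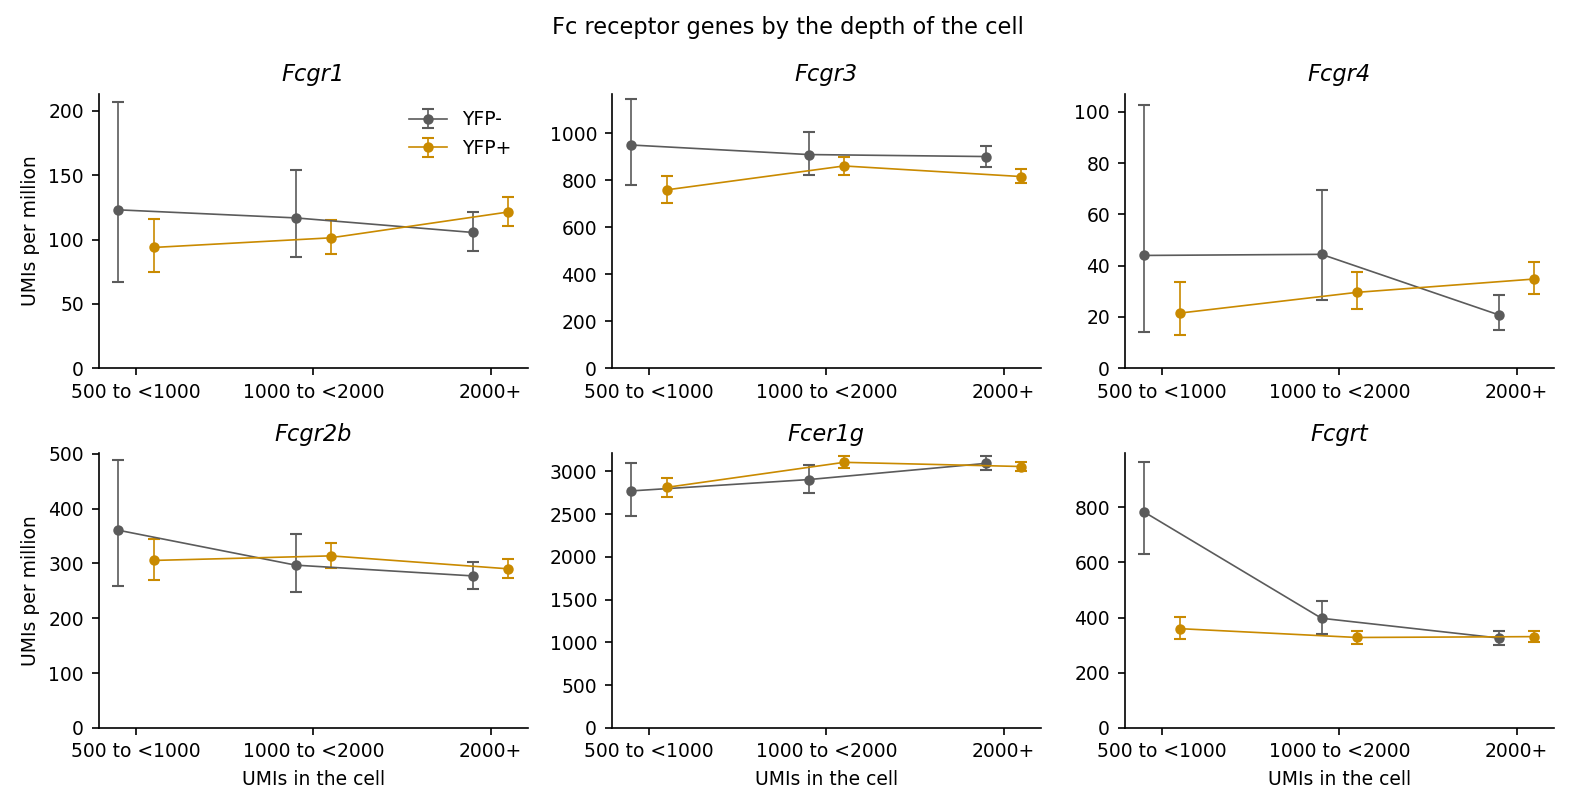
Level of each gene in CPM in cells of 500 to under 1000, 1000 to under 2000 and 2000 or more UMIs, for YFP- (grey) and YFP+ (orange) cells, with exact Poisson 95% intervals. Fcgrt stands at 783 CPM in the shallowest YFP- cells and between 326 and 397 CPM in the deeper ones, while its YFP+ levels stay between 328 and 359.7 CPM.

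Random draws have a variance equal to their mean, and sparse counts give a ratio near 1 whatever the gene. After thinning, the variance over the mean of the UMIs per cell was 1.03 for Fcgr1, 1.07 for Fcgr2b, 1.13 for Fcgr3, 1.12 for Fcgr4, 1.33 for Fcer1g and 1.15 for Fcgrt in YFP- cells. In YFP+ cells it was 1.06, 1.07, 1.06, 1.07, 1.21 and 1.09 in the same order. For Fcgrt the median of genes of like level was 1.07 in the YFP- and 1.03 in the YFP+ library, and for Fcer1g it was 1.24 and 1.15. Against genes of like level in YFP+ cells, Fcgr4 stood at percentile 94.6 and Fcgr1 at percentile 89.8, and against those in YFP- cells at 80.9 and 47.4. At this depth 13.1% of YFP- and 12.3% of YFP+ cells showed none of the 6 genes, 43.4% and 43.5% showed 1, 31.6% and 34.1% showed 2, and no cell showed all 6. Over the 15 pairs of genes, the share of cells with both was 0.816 to 2.45 times the product of the separate shares in YFP- cells (median 1.13) and 0.583 to 2.62 times in YFP+ cells (median 0.996). The highest value in each library was that of Fcgr1 with Fcgr4, which rested on 2 and 7 cells.

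Across cells, the genes most like each receptor were named by Pearson's r of log-scaled counts, over 1045 YFP- and 4053 YFP+ cells and among genes of at least 100 CPM. Cells share their library and differ in depth, so the values are descriptions. Fcgrt was most like Folr2 (r = 0.20 and 0.15), a folate receptor of resident macrophages, then Clec10a (0.17 and 0.09) and Lyve1 (0.17 and 0.08). The median over all genes was 0.01. Fcer1g was most like C1qb (0.34 and 0.28), Lyz2 and C1qa, and Fcgr3 most like C1qc (0.21 and 0.20), C1qa and Lyz2, which encode complement C1q chains and lysozyme. Fcgr1 with C1qb, Ccl4 and Apoe, Fcgr2b with Lyve1, Lyz2 and Atp5h, and Fcgr4 with C1qa, Cd74 and C1qb did not go beyond a mean r of 0.10, too weak to read in counts this sparse.

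Of 47 other genes of the pathway with a mean of at least 20 CPM, 1 passed 1.5-fold between the libraries, where 7.3% of all genes did. Of 12 other Fc receptor genes only Fcrls, an Fc receptor-like gene of macrophages and microglia, reached a mean of 20 CPM, at 372 CPM among YFP- and 288 CPM among YFP+ cells (log2 ratio -0.37, -0.49 to -0.26), and 10 of the 12 had fewer than 3 UMIs in each library. Fcer1a and Ms4a2, the other chains of the high-affinity IgE receptor, had no UMI. Among 12 antibody genes, which encode the ligands, only Ighm reached 20 CPM (316 and 326 CPM), and 9, all IgG heavy chains and Igkc among them, were listed at 0 UMIs in cells. Whether the annotation used for counting could detect these 9 genes is not known. Of 5 B cell markers, 4 had no UMI in either library, while the whole list summed to 57.9 CPM (YFP-) and 53.8 CPM (YFP+). Of 27 genes of activating signalling 19 were compared and none passed 1.5-fold, with a median log2 ratio of -0.06. Syk, the kinase recruited by Fcer1g, was at 67.4 and 53.1 CPM (-0.34, -0.61 to -0.07), and Lyn, a kinase that phosphorylates ITAM and ITIM motifs, at 138 and 135 CPM (-0.02, -0.20 to 0.16). Of 12 genes of inhibitory signalling 11 were compared and none passed, with a median of 0.14. Inpp5d, which encodes SHIP-1, was at 129 and 144 CPM (0.16, -0.03 to 0.34). Of a list of 14 inhibitory receptors, of which Lilr4b is not known to carry an ITIM, 12 were compared, with a median of 0.06, and 1 was past 1.5-fold, Pilra, at 19.0 and 32.3 CPM (0.73, 0.29 to 1.1998). Below the minimum level, Sos1, an exchange factor for Ras, was at 2.07 and 8.30 CPM (1.60, 0.59 to 2.54), and Ighd, the IgD heavy chain, at 11.6 and 5.78 CPM (-0.89, -1.54 to -0.22). Fcrls, Ighm, Igkc, Fcer1a, Ms4a2, Syk, Lyn, Inpp5d, Pilra, Lilr4b, Sos1 and Ighd were chosen for naming after their values were seen.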

How the data were processed

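Single-cell RNA sequencing libraries (10x Chromium, version 2 chemistry) of YFP- and YFP+ macrophages were analysed, 1 library per group. The authors deposited a matrix of UMI counts for each library, produced by Cell Ranger on GRCm38, without normalization and with every barcode kept. The submitters' processing notes name Cell Ranger 3.0.2 and Seurat 2.2.0, and the paper's methods name an older Cell Ranger, so the version is not settled. The release of the gene annotation is not given in the sources used here. The number of libraries per group and the counts set the precision, and PCR duplicates are removed by UMIs.

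Barcodes with at least 500 UMIs and 200 genes were kept as cells, 1045 and 4053, where the study captured 935 and 3186. At most 3 cells in a library had over 10% mitochondrial UMIs. Scrublet marked 3 and 0 cells and so did not work, and doublets were kept. Counts were summed per library or cluster and given as CPM with exact Poisson 95% intervals. Ratios were taken after adding 1 CPM, with exact conditional binomial intervals, and shares with Clopper-Pearson intervals after thinning to 500 UMIs. Genes with a mean of at least 20 CPM were compared, and 1.5-fold served as threshold. Free RNA was read from barcodes of 10 to 100 UMIs.

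Clustering used scanpy 1.11.5, igraph 0.11.9 and leidenalg 0.10.2 on counts scaled to 10000, 2000 variable genes without 18 Fc receptor genes, 20 components, 20 neighbours, a Leiden resolution of 0.8 and seed 0. A name needed more markers of its list than of any other among the 10 leading genes, at least 3 markers with 10 UMIs or more, and a mean log2 ratio of 0.25. These limits were chosen once the clusters were known. Of the 20 marker lists, those of 4 groups (Cd209-high Fcna, Ccr2 S100a6, cycling and immediate-early) were drawn from the study's own clusters of these libraries, so they are not independent. Gene positions came from GENCODE M21, which held 99.8% of the gene identifiers, and promoters from RefSeq, which held all 6 genes. Python 3.11.15, numpy 2.4.6, scipy 1.17.1, pandas 2.3.3 and matplotlib 3.10.9 were used. The log2 ratio with its interval, thinning and the variance over the mean were tested on simulated counts. These were random draws with no further spread between cells, and the other steps were not tested in this way.

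Genes named were the 6 receptors, Tyrobp, B2m, Csf1r, Adgre1, Cd68 and Ptprc, the 3 genes most like each receptor, and genes of 6 pathway lists with a mean of at least 50 CPM past 1.5-fold, of which there was none. The genes and lists were chosen with earlier results of these data known. Alternatives were other cell minimums and numbers, thinning, equal weight per cell, removal of 10% free RNA, other scalings, pseudocounts and clusterings, and, added after seeing the data, leaving out cells of shared barcodes. The bulk libraries of the study were not used here.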

Additional observations from a re-analysis of the deposited data

Results flagged for a closer look

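Barcodes of more than 100 and fewer than 500 UMIs, which were in no comparison, also held these genes above the 3 counts that a count of 0 allows. In 387 such YFP- barcodes Fcgr1 was at 135 CPM, Fcgr2b at 326 CPM, Fcgr3 at 596 CPM, Fcer1g at 1846 CPM and Fcgrt at 506 CPM. In 1816 YFP+ barcodes Fcgr1 was at 114 CPM, Fcgr2b at 280.3 CPM, Fcgr3 at 632 CPM, Fcgr4 at 30.9 CPM, Fcer1g at 2183 CPM and Fcgrt at 385 CPM. Fcer1g and Fcgr3 were lower in these barcodes than both in cells and in barcodes of 10 to 100 UMIs of the same library, and Fcgrt lay between the level of cells and that of free RNA.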

How the results depend on the processing

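With 1 library in each group, no replicate could be left out and no result has a replicate error. No paired analysis was possible because each group has a single library. No result changed sign with an interval that left out 0 before and after. Over 10 alternatives the log2 ratio of YFP+ over YFP- ran from -0.02 to 0.02 for Fcer1g, from -0.14 to 0.08 for Fcgr1, from 0.04 to 0.11 for Fcgr2b and from -0.18 to -0.11 for Fcgr3. With each cell thinned to 500 UMIs it was -0.27 (-1.10 to 0.64) for Fcgr4 and -0.35 for Fcgrt. Thinning to 500 UMIs also changed the number of Fcer1g UMIs per activating receptor UMI in YFP- cells to 2.79. With equal weight for each cell the log2 ratio was -0.17 for Fcgr4 and -0.30 for Fcgrt. With no minimum level 19.4% of genes passed 1.5-fold. Shares of cells rose with depth. In cells of at least 1000 UMIs thinned to 1000, the YFP- and YFP+ shares were 9.05% and 10.8% for Fcgr1, 22.5% and 26.0% for Fcgr2b, 56.5% and 55.2% for Fcgr3, 2.79% and 2.47% for Fcgr4, 92.8% and 93.4% for Fcer1g and 28.5% and 27.2% for Fcgrt. This left out 150 YFP- and 1184 YFP+ cells. Without thinning they were 19.7% and 15.5%, 42.0% and 35.3%, 78.6% and 65.8%, 5.07% and 4.44%, 94.2% and 93.2%, and 48.9% and 38.2% in the same order. In Cd209-high Fcna-like cells, a Leiden resolution of 1.2 gave log2 ratios over other cells of 1.43 (YFP-) and 1.35 (YFP+) for Fcgrt, 0.70 (YFP+) for Fcgr2b and -1.46 (YFP-) for Fcgr1, 10 principal components gave 1.32 and 1.22, 0.67 and -2.005, and clustering each library alone gave 1.29 for Fcgrt and -2.19 for Fcgr1 in YFP- cells. In interferon-like cells, 10 principal components gave -0.84 (-2.26 to 0.29) for Fcgr1 in YFP- cells, and clustering the YFP+ library alone gave 2.74 for Fcgr4. No cluster could be named interferon-like when the YFP- library was clustered alone, so there is no value. The cause of these moves was not tested. In interferon-like YFP- cells, clustering with no gene left out gave 0.83 (-1.38 to 2.42) for Fcgr4, against 1.94. For Fcgr2b in YFP- Cd209-high Fcna-like cells the value, 0.42 before, was 0.76 at the higher resolution, 0.75 with 10 components and 0.69 with the library alone, past 1.5-fold. Depth limits Fcgr4 and Fcgr1 most, with 63 and 262 UMIs in YFP- cells.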
